A study of Vigna radiata with 42 samples.

Results

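Mung bean leaves that had met salt in 2 spells with a break between them were set against leaves that had met the same number of hours without a break. The interrupted plants, T1 at 24 h, had spent 24 h in 100 mM NaCl, 48 h in solution without salt and a further 24 h in 100 mM NaCl. The continuous plants, T2 at 48 h, had spent 48 h in 100 mM NaCl. Both are the first fully expanded true leaves of hydroponic seedlings of the cultivar Weilv 9, with 3 libraries each, 6 of the 42 libraries of the series. The other 36 belong to T1 and T2 plants taken at 7 times, between 0 h and 48 h after the final salt began, and T1 at 0 h is the recovered plant before its second salt. The salted hours add up to 48 in both groups, but T1 leaves were taken 96 h after their first salt and T2 leaves 48 h after it. The labels give no plant age at harvest, so the break, the length of the last salt spell and age cannot be told apart from these 2 groups alone. The 6 libraries were matched to the groups by their titles.

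Salt in the root medium first lowers the water available to the shoot, and the leaf closes its stomata and makes abscisic acid and compatible solutes. Sodium and chloride then build up in the leaf over hours to days, where they disturb potassium balance, protein synthesis and photosynthesis. When salt is withdrawn, many transcripts return towards their former level, while others stay altered or respond differently to a second exposure, which is described as stress memory or priming.

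The values are normalized expression values that the authors call TPM, a unit in which gene length and sequencing depth are divided out. Genes carry IDs only, and 0 of 28740 IDs matched the RefSeq gene list used here, so no gene is given a function, leaf markers could not be checked, and no sequence is shown. Of the 28740 IDs, 18039 (62.8%) reached 1 in 3 or more of the 6 libraries and were tested. At the edge of that filter, 551 IDs reached 1 in exactly 3 libraries, with a median mean value of 1.13, and 523 left out reached it in 2, with a median of 0.883. Of the tested IDs, 193 passed through T1 24 h alone, being at 1 or above in all 3 T1 24 h libraries and in no T2 48 h library, and 157 passed through T2 48 h alone. Fewer cells of a type and less RNA per cell cannot be told apart in whole leaves.

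The 6 libraries fell into their labelled groups. Pearson's r of log2(value + 1) over the tested IDs was 0.970 to 0.976 within T1 24 h, 0.978 to 0.990 within T2 48 h and 0.909 to 0.945 between them. Each T1 24 h library was nearer to T2 24 h than to T2 48 h. Over all 3 the ranges, 0.941 to 0.973 and 0.909 to 0.945, overlap at their ends. The T2 48 h libraries were nearer to T1 48 h (0.936 to 0.963) than to T2 24 h (0.923 to 0.947), though these ranges overlap. T1 24 h replicate 1 stood apart in one respect: IDs with a Pt prefix held 5.38% of its signal, against 0.17% and 0.3% in T1 24 h replicates 2 and 3 and 0.142% to 0.194% in the T2 48 h libraries. Relative depth, read from the steps between low values, was 0.91 to 1.14 times the median library in T1 24 h and 0.78 to 1.00 in T2 48 h; absolute depth is unknown. T1 24 h replicate 1 was also the farthest from T2 48 h for many genes, so results are given with and without it where they rest on it. The submitters call the 3 libraries of a group biological replicates but do not say how many plants each holds. The p-values therefore measure a spread between libraries of a group, pooled over the 14 groups in the fit, and not a spread between plants.

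Leaves of the interrupted and the continuous plants differed in many IDs, most of them by less than 2-fold. Of the 18039 IDs tested, 5545 (30.7%) were called at an adjusted p under 0.05 in limma with Benjamini-Hochberg adjustment: 2624 (14.5%) stood higher and 2921 (16.2%) lower in T1 24 h than in T2 48 h. Most differences were modest, with a median log2 difference of 0.64 among the higher IDs and -0.61 among the lower ones, and 91.4% of all tested IDs lay within 2-fold on the log2(value + 1) scale, which understates the change of low genes. A rise of 2-fold or more was found for 693 IDs (3.84%) and a fall of that size for 680 (3.77%). At 4-fold or more these numbers were 137 higher and 140 lower, at 8-fold 54 and 42, and at 16-fold 27 and 11. Of the 693 IDs, 81 passed the filter through T1 24 h alone, and of the 680 IDs, 51 through T2 48 h alone. The calls of those IDs are no independent support. The 3 libraries of each group did not overlap for 2529 of the 2624 higher IDs (96.4%) and 2833 of the 2921 lower IDs (97%). Over all tested IDs 49.9% did not overlap, 24.1% with T1 24 h above and 25.8% with it below. Without T1 24 h replicate 1, 3835 IDs were called, and 3641 without that library and 2 of other groups that were also high in Pt signal (T2 24 h replicate 2 and T2 12 h replicate 3). The even split depends on the scaling: the T1 24 h columns sum to 1037000 to 1203584 and the T2 48 h columns to 896981 to 954971, and when all library totals were set equal the median of all IDs was -0.23, against -0.01 as deposited. At equal totals 16.3% of called IDs were higher in T1 24 h, against 47.3% as deposited. Set against its own 0 h, T1 24 h differed in 3889 IDs (21.6%) and T2 48 h in 7831 (43.4%).

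**Figure D1:**
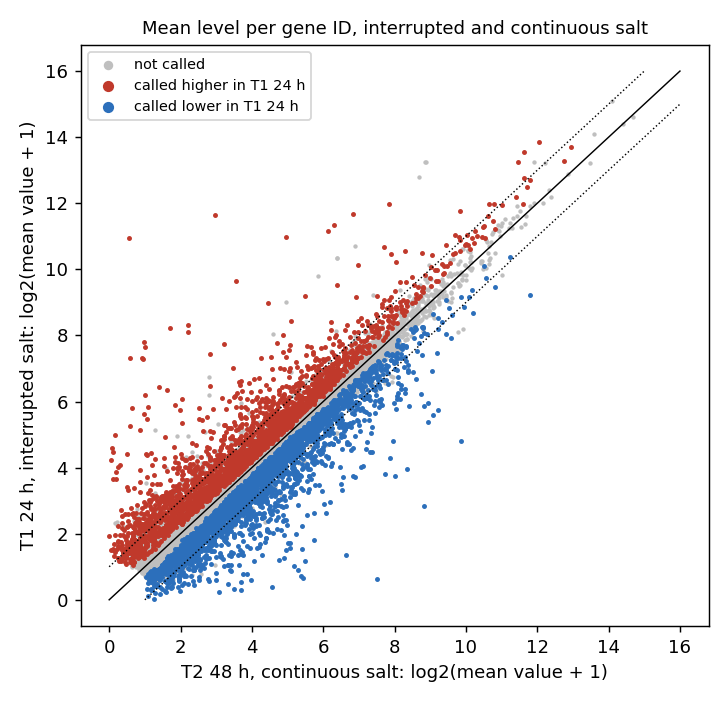
Mean level of each of the 18039 tested gene IDs in T1 24 h (vertical axis) against T2 48 h (horizontal axis), both as log2(mean value + 1), with 3 libraries a group. Red points are the 2624 IDs called higher and blue points the 2921 called lower in T1 24 h; the solid line marks equal levels and the dotted lines a 2-fold difference. The tails lie on both sides at all levels, and the largest differences are those above the line.

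The IDs printed here are the 2 with the largest difference in each direction among called IDs with a mean of at least 5 in the higher group and no overlap between groups. Virad09G0020600 had values of 4480, 1050 and 386 in the T1 24 h libraries, against 0.526, 0.071 and 0.834 in the T2 48 h libraries. Its log2 difference was 9.73 (SE 1.33, adjusted p = 2.80e-06 in limma). It is one of the 193 IDs that passed the filter through T1 24 h alone, of which 152 were called higher, so that p is no independent support. It was uneven within T1 throughout, at 804, 13.9 and 174 in the recovered plants at 0 h and 140, 293 and 1580 at 48 h. In T2 no library exceeded 75.2 at any time, and at 24 h the values were 1.37, 0.608 and 3.45. The groups lay wide apart at 24 and 48 h of either treatment. Before the second salt they overlapped, since the lowest T1 library at 0 h was below the highest T2 library, at 35.8.

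Virad10G0050400 was also uneven among T1 libraries, at 2050, 69.8 and 1040 at 0 h. It stood at 5840, 2310 and 1390 in T1 24 h and at 11.6, 1.71 and 6.94 in T2 48 h, a log2 difference of 8.68 (SE 0.95, adjusted p = 7.17e-08 in limma). Here the T2 level itself moved: it was 132, 213 and 99.4 at 0 h, 86.4, 69.1 and 102 at 24 h, and far lower at 48 h. The limma log2 change in T2 from 24 to 48 h was -3.73 (SE 0.95, adjusted p = 0.00334), and T1 24 h was above T2 24 h by 4.95 (SE 0.95, adjusted p = 0.00371). In T1 24 h both genes were highest in replicate 1 and lowest in replicate 3. With 1 of the 6 libraries left out, the log2 difference ran from 8.79 to 10.55 for Virad09G0020600 and from 8.05 to 9.16 for Virad10G0050400.

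The genes with the largest difference the other way behaved otherwise: they were low in T1 24 h and T2 24 h alike, and were raised in T1 a day later. Virad07G0173000 had values of 9.45, 3.49 and 5.59 in T1 24 h and of 531, 579 and 251 in T2 48 h, a log2 difference of -5.98 (SE 0.50, adjusted p = 4.69e-10 in limma). It stayed at or below 10.8 in each of the 36 libraries taken from 0 to 24 h in either treatment. At 48 h of the second salt T1 stood at 134, 364 and 314. The 3 T1 48 h libraries overlap those of T2 48 h.

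Virad10G0157400 had values of 0.511, 0.622 and 0.469 in T1 24 h and of 193, 200 and 153 in T2 48 h, a log2 difference of -6.89 (SE 0.65, adjusted p = 5.54e-09 in limma). It is one of the 157 IDs that passed the filter through T2 48 h alone, of which 122 were called lower, so that p too is no independent support. It swung over time in both treatments. In T2 it was at 686, 739 and 1010 after 1 h, at 3.87, 2.96 and 3.06 after 24 h and high again at 48 h. In T1 it reached 15.9, 63.5 and 122 after 1 h, was back at 24 h near its 0 h values of 0.153, 0.767 and 0.829, and stood at 120, 81 and 59.3 at 48 h. All 3 T1 48 h libraries were thus above all 3 T1 24 h libraries and below all 3 T2 48 h libraries. The difference ran from -7.01 to -6.82 with 1 library left out.

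**Figure D2:**
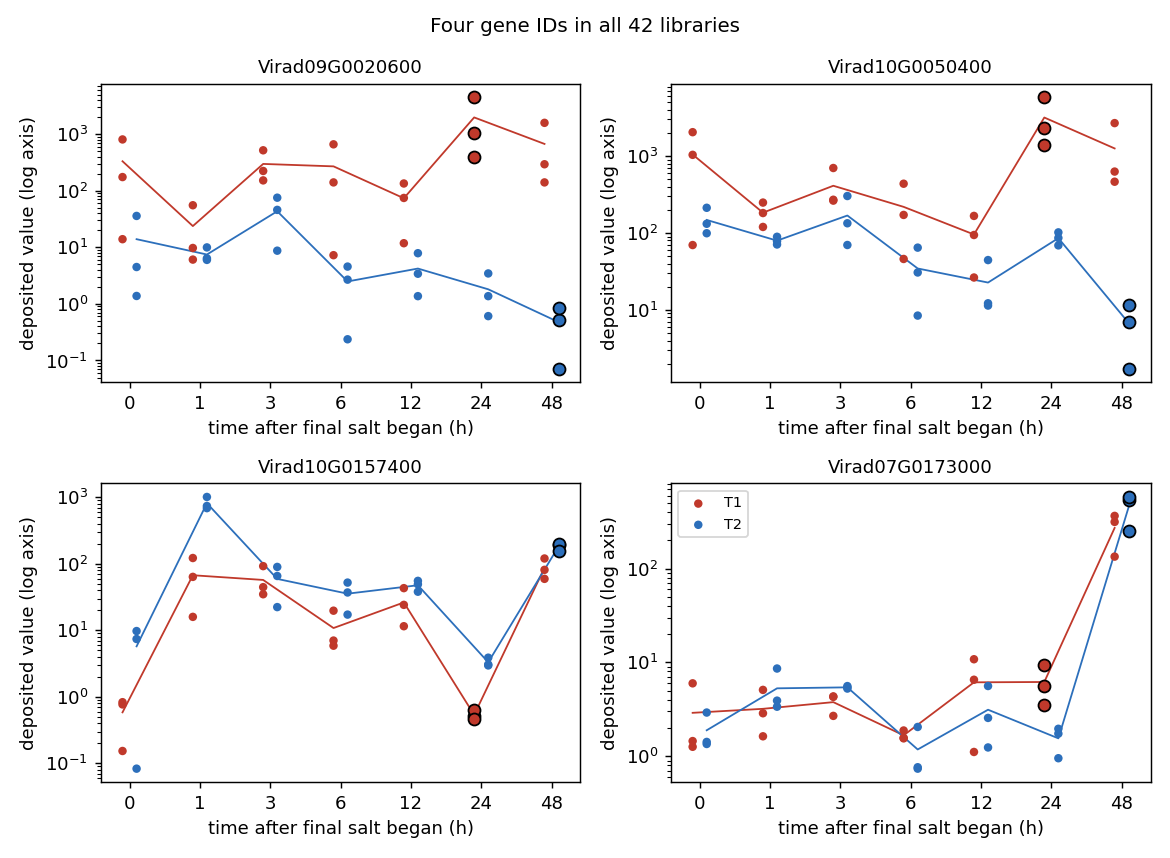
Deposited values (log axis) of 4 gene IDs in all 42 libraries against the time after the final salt began; T1 is red, T2 blue, lines join group means, and black rims mark the T1 24 h and T2 48 h libraries. In the upper pair the T1 libraries at 24 and 48 h lie above all T2 libraries at those times, while in the lower pair both treatments are high at 48 h and low at 24 h.

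The called IDs were placed against the 12 groups that take no part in the comparison. T2 at 24 h, continuous salt of the same length as the last spell of T1, lay nearer to T1 24 h than to T2 48 h for 4463 of the 5545 called IDs (80.5%), against 66.3% of all tested IDs. The share was 77.5% for the higher and 83.2% for the lower IDs, and 86.5% over called IDs when T1 24 h replicate 1 was left out. T1 at 48 h was on the other side: it lay nearer to T1 24 h for 33.8% of called IDs, against 40.9% of all IDs, and therefore nearer to T2 48 h for most. The recovered T1 plants at 0 h lay nearer to T1 24 h for 68.7% of called IDs (59.8% of all), and the T2 plants at 0 h, which had never met salt, for 60.3% (55.5% of all).

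The same picture was expressed as a position, 1 at the T1 24 h mean and 0 at the T2 48 h mean of an ID, with the median taken over IDs. Over the 693 IDs at least 2-fold higher in T1 24 h, the T2 24 h libraries had positions of 0.61, 0.70 and 0.80, and the T1 48 h libraries 0.20, 0.20 and 0.35. Over the 680 IDs at least 2-fold lower, the T2 24 h libraries were at 0.84, 0.92 and 0.87 and the T1 48 h libraries at 0.25, 0.27 and 0.33. In both sets the T2 24 h and T1 48 h libraries did not overlap. The recovered plants at T1 0 h had median positions of 1.07, 1.03 and 1.02 over the lower IDs and 0.80, 0.54 and 0.81 over the higher ones. The median over the lower IDs covers changes both ways, since 112 of the 680 (16.5%) were called higher and 106 (15.6%) lower in T1 24 h than in T1 0 h. The 12 h groups lay towards T2 48 h in both sets, with medians of 0.28 and 0.39 in T1 and 0.23 and 0.35 in T2. Over all tested IDs the median positions of the group means were 0.84 in T2 24 h and 0.25 in T1 48 h. They were 0.30 in T1 12 h, 0.34 in T2 12 h and 0.77 in T1 0 h. The places of T2 24 h, T1 48 h and the 12 h groups are therefore not particular to the 693 and 680 IDs. Since the IDs were chosen by the difference between T1 24 h and T2 48 h, the positions of the other groups are a description and carry no test.

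**Figure D3:**
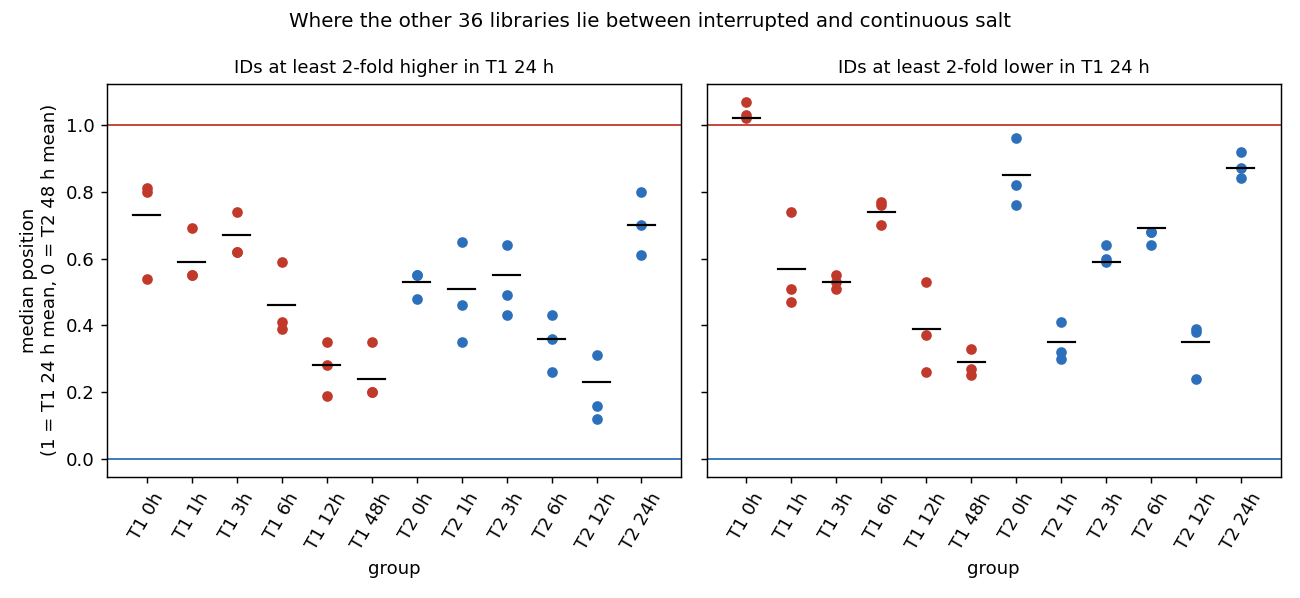
Median position of each of the other 36 libraries between the T2 48 h mean (0, blue line) and the T1 24 h mean (1, red line), over the 693 IDs at least 2-fold higher (left) and the 680 at least 2-fold lower (right) in T1 24 h. Points are libraries, T1 red and T2 blue, and black bars are the position of the group mean. T2 24 h sits nearer to 1 and T1 48 h nearer to 0 in both panels. The same held over all tested IDs, not drawn here, with 0.84 in T2 24 h and 0.25 in T1 48 h.

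IDs were then chosen by their difference between 48 and 24 h of continuous salt, where salt, age and day cannot be told apart, since unsalted plants of those times were not analysed here. In T2, 5957 IDs (33%) differed between 48 and 24 h, against the 5545 that separated T1 24 h from T2 48 h, a comparison with the same T2 48 h libraries. Of these, 705 (3.91%) were at least 2-fold higher at 48 h and 623 (3.45%) at least 2-fold lower. On a scale from 0 at the T2 24 h mean to 1 at the T2 48 h mean, the T1 24 h libraries stood at 0.13, 0.07 and 0.19 over the 705 rising IDs and the T1 48 h libraries at 0.83, 0.87 and 0.79. Over the 623 falling IDs the T1 24 h libraries stood at 0.36, 0.09 and 0.39 and the T1 48 h libraries at 1.05, 1.05 and 0.92. The T1 24 h mean was nearer to T2 48 h than to T2 24 h for 17.6% of rising and 27.6% of falling IDs, and the T1 48 h mean for 78.2% and 87.3%. The recovered plants, before any second salt, stood close to T1 24 h on this scale: the T1 0 h libraries were at 0.08, -0.12 and 0.20 over the rising and 0.40, -0.01 and 0.42 over the falling IDs, and their mean was nearer to T2 48 h for 20% and 35.2%.

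Genes were next grouped by their course in libraries outside the 6, taking IDs called with at least a 2-fold change. IDs that differed between 48 h of the second salt and T1 0 h came first. Of the 1596 IDs (8.85%) higher at T1 48 h than at T1 0 h, 623 (39%) were lower and 100 higher in T1 24 h than in T2 48 h, with a median log2 difference of -0.41. Of the 1340 IDs (7.43%) that had fallen at T1 48 h, 451 (33.7%) were higher and 63 lower, with a median of 0.46. These shares compare with 14.5% higher and 16.2% lower among all tested IDs, whose median was -0.01. The classes are not confined to late changes. The median change of the rising class from 0 h of the same treatment was 0.58 in T1 24 h, 0.51 in T2 24 h and 0.99 in T2 48 h. For the falling class it was -0.65, -0.56 and -1.10. The T1 changes share the T1 0 h libraries with the choice of class, so these values carry no test. The rising class makes up 53.1% of all IDs at least 2-fold lower in T1 24 h, and the falling class 33.2% of those at least 2-fold higher. With T1 24 h replicates 1, 2 and 3 set singly against the T2 48 h mean, the median of the rising class was -0.37, -0.49 and -0.37 and that of the falling class 0.23, 0.70 and 0.42.

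Genes of the first hour of direct salt were also apart. Of the 1011 IDs (5.6%) at least 2-fold higher in T2 at 1 h than at 0 h, 358 (35.4%) were lower and 76 higher in T1 24 h than in T2 48 h, with a median of -0.39. Their median change from 0 h of the same treatment was 0.26 in T1 24 h and 0.65 in T2 48 h, and T2 24 h stood at 0.21. Of the 364 IDs (2.02%) lower at 1 h, 149 (40.9%) were higher and 17 lower in T1 24 h, with a median of 0.46. Their change from 0 h was -0.59 in T1 24 h and -1.22 in T2 48 h. The changes from 0 h share 0 h libraries with the choice of class, here and in the classes below, so they are given side by side and carry no test. With T2 1 h replicate 2, which holds fewer detected genes than the other libraries of its group, left out of the choice, the medians were -0.24 for 1222 IDs and 0.41 for 360 IDs.

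A like pattern held for the 12 h genes; 12 h lies at another point of the daily cycle than 0, 24 and 48 h. Of the 1541 IDs (8.54%) higher in T2 at 12 h than at 0 h, 548 (35.6%) were lower in T1 24 h and 81 higher, with a median of -0.34. Of the 1761 (9.76%) lower at 12 h, 439 (24.9%) were higher in T1 24 h and 157 lower, with a median of 0.23. At equal library totals this last median was -0.01, against -0.23 for all IDs.

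The genes of a full day of direct salt gave a mixed result. Of the 438 IDs (2.43%) at least 2-fold higher in T2 at 24 h than at 0 h, 122 (27.9%) were higher and 95 (21.7%) lower in T1 24 h than in T2 48 h. Both shares were above those of all IDs, and the median was only 0.06, with quartiles of -0.59 and 0.83. The class stood 1.26 above 0 h in T1 24 h and 1.44 in T2 48 h on the log2 scale. Of the 425 IDs (2.36%) lower at 24 h, 59 were higher and 110 (25.9%) lower in T1 24 h, with a median of -0.09. The median for the single T1 24 h libraries was -0.33, 0.20 and -0.16 and so changed sign with the library. At equal library totals the median of the rising class was -0.16, above the -0.23 of all IDs.

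**Figure D4:**
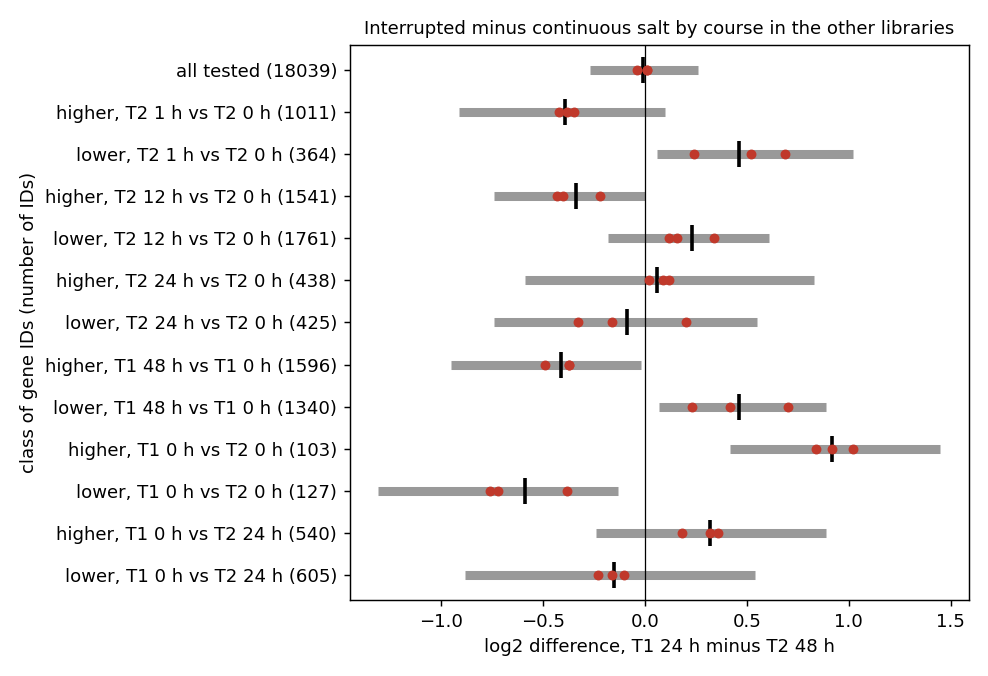
Log2 difference between T1 24 h and T2 48 h for classes of gene IDs chosen in libraries outside these groups, with the number of IDs in each class. Black ticks are class medians, grey bars run between quartiles, and red points are medians for single T1 24 h libraries against the T2 48 h mean. Classes raised at 1, 12 and 48 h lie below 0 and their lowered counterparts above it, and the class higher in recovered than in never-salted plants has a median of 0.92, or 0.43 when chosen without T1 0 h replicate 2.

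Genes that differed by 2-fold or more before the second salt were followed next. Between T1 0 h and T2 0 h, 943 IDs (5.23%) were called, 103 of them (0.571%) raised 2-fold or more in T1 and 127 (0.704%) lowered by as much. Of the 103 higher IDs, 56 (54.4%) were also higher in T1 24 h than in T2 48 h and 0 were lower, with a median log2 difference of 0.92 and medians of 1.02, 0.84 and 0.92 for the single T1 24 h libraries. Of the 127 lower IDs, 49 (38.6%) were lower and 4 higher, with a median of -0.59. The difference between T1 24 h and T2 48 h was above 0 for 90.3% of the 103 and 23.6% of the 127, against 49% of all IDs. From 0 h to T1 24 h the 103 IDs had changed little, with a median of -0.07, while from 0 h to T2 48 h it was 0.43. One library bears on the choice: T1 0 h had the widest spread of the 14 groups, with a median SD per ID of 0.246 on the log2 scale, and without its replicate 2 the classes were larger, 603 and 576 IDs, with medians of 0.43 and -0.20. Of the 603, 189 (31.3%) were higher and 28 lower, and of the 576, 135 (23.4%) were lower and 38 higher.

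Genes that differed between recovered leaves and leaves after a first day of salt were taken from the contrast of T1 0 h with T2 24 h. Of the 605 IDs (3.35%) at least 2-fold lower in recovered leaves than in leaves after a day of salt, 174 (28.8%) were lower and 121 (20%) higher in T1 24 h than in T2 48 h. Their median log2 difference between T1 24 h and T2 48 h was -0.15. Their median change from 0 h of the same treatment was 1.06 in T1 24 h, 0.85 in T2 48 h and 1.05 in T2 24 h. T1 0 h took part in the choice of both classes, so these changes cannot stand in for the direct difference. Of the 540 IDs (2.99%) higher in recovered leaves, 140 (25.9%) were higher and 61 (11.3%) lower in T1 24 h, with a median of 0.32. Their change from 0 h was -0.91 in T1 24 h and -0.68 in T2 48 h.

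A smaller set differed between T1 24 h and continuous salt at both lengths. T1 24 h and T2 24 h differed in 534 IDs (2.96%), 264 (1.46%) higher and 270 (1.5%) lower in T1 24 h, and 3368 had an unadjusted p under 0.05. Both this and the main comparison use the T1 24 h libraries, so calls shared by both are no independent support. In both, 152 IDs were higher in T1 24 h, 5.79% of the 2624 higher IDs, against 1.46% of all tested IDs higher than in T2 24 h. In both, 95 were lower, 3.25% of the 2921 lower IDs, against 1.5% of all tested IDs. For the 152 higher IDs, positions were 0.68, 0.61 and 0.69 in the T1 48 h libraries and -0.07, 0.01 and -0.17 in the T2 0 h libraries. Not every T2 library was low, since the T2 3 h libraries were at 0.04, 0.51 and 0.12, against 0.28, 0.31 and 0.31 in T1 3 h. The IDs were chosen by their difference from T2 24 h and T2 48 h, so these positions are a description and carry no test. Not every T1 group was high, since T1 6 h and T1 12 h had positions of 0.05 and 0.06. The recovered plants at T1 0 h were uneven, at 0.51, -0.04 and 0.67, and replicate 2 is the one at the level of T2 0 h. For the 95 lower IDs T1 48 h stood at 0.52, 0.50 and 0.53. This set rests on single libraries. Without T1 24 h replicate 1 the 534 became 68, with 23 and 12 IDs on the same side in both comparisons, and without T2 24 h replicates 1 or 2 it became 155 or 131.

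Among the IDs far higher in T1 24 h, consecutive numbers were common. ID numbers rise in steps of 100, and of the 447 IDs raised 2-fold or more in T1 24 h with a tested next number, 67 (15%) had that next ID also at least 2-fold higher, against 3.65% of next IDs in all. For the 438 at least 2-fold lower it was 38 (8.68%), against 3.82%. One stretch of 29 IDs held 3 such runs. Of its 22 tested IDs, 14 were at least 2-fold higher in T1 24 h and 1 was lower, and 4 of the 10 IDs with the largest differences among those called higher lay in it. The summed value of the 22 IDs was 20000, 6570 and 4530 in the T1 24 h libraries, against 523, 492 and 444 in the T2 48 h libraries. It was 631, 611 and 908 in T2 24 h and 6750, 5740 and 9910 in T1 48 h, so that both late T1 groups lay above both late T2 groups. Before the second salt it was 851, 290 and 729 in T1, against 241, 340 and 212 in T2, and there the groups overlapped. The high level is not restricted to T1, since T2 3 h replicate 2 reached 10700 while the others of that group were at 2510 and 1560. Among the 3 T1 24 h libraries, 16 of the 22 IDs were highest in replicate 1. Whether these IDs are similar copies that share reads was not tested, and the stretch was chosen after its values were seen.

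**Figure D5:**
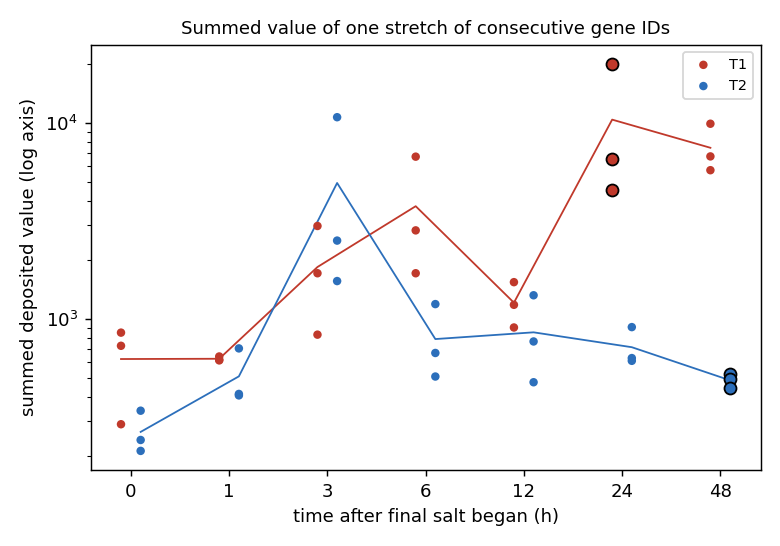
Summed deposited value (log axis) of the 22 tested IDs of the stretch in each library against the time after the final salt began, T1 red and T2 blue, with lines through group means and black rims on the T1 24 h and T2 48 h libraries. The T1 libraries at 24 and 48 h lie between 4530 and 20000, and the T2 libraries at those times between 444 and 908.

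The most abundant transcripts took a larger share in T1 24 h than in T2 48 h. The 100 IDs of highest mean in the other 36 libraries held 38.1%, 36.8% and 35.8% of the signal in T1 24 h, against 30.5%, 28.4% and 31% in T2 48 h, and the groups did not overlap. The means were 36.9 ± 1.19% and 30 ± 1.41% (SD, n = 3 each; two-sided exact permutation p = 0.1, the smallest that the 10 splits allow). T2 24 h, at 32.9%, 36.3% and 34.8%, overlapped T1 24 h, and T1 48 h, at 26.7%, 28.7% and 30.1%, overlapped T2 48 h. Of these 100 IDs, 37 (37%) were called higher and 5 (5%) lower in T1 24 h, against 14.5% and 16.2% of all tested IDs. Their median log2 difference was 0.39 as deposited, 0.14 at equal library totals and -0.10 after quantile normalization, so its sign depends on the scaling. Of 24 tested IDs with a Pt prefix, 4 (16.7%) were called higher and 2 (8.33%) lower, so the higher share was near the 14.5% of all IDs. The median difference of the 24 from the T2 48 h mean was 1.10 in T1 24 h replicate 1 but -0.05 and 0.14 in replicates 2 and 3.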

How the data were processed

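Leaf poly(A) RNA of 42 libraries was sequenced on DNBSEQ. The submitters' processing notes name fastp 1.0.1, HISAT2 2.2.1, featureCounts and DESeq2 1.48.2; no label or header names the build or annotation. The deposited values are an expression signal that the authors call TPM; column totals differ, so a further scaling, not described, was applied. No counts were used, so no counting interval is given. Of 5505 low values in 1303 sparse IDs, 99.3% were whole multiples (within 0.1) of a step once each library had its own factor, against 39.2% without such factors. The step is the lowest value of each ID, so that value is whole by construction in both shares. The factors were fitted to these same values and give relative depth only (0.77 to 1.32 times the median).

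Values were compared as log2(value + 1) in limma 3.58.1 (R 4.3.3), with a mean per group over all 42 libraries, robust trend moderation and two-sided p adjusted by Benjamini-Hochberg over 18039 IDs. The fit was tested on simulated data. Members, classes and named-ID rule (largest called differences, mean at least 5, no overlap, 2 each way) were chosen with earlier results of these data known. Gene lists and markers by name were not run, since no ID could be paired. Alternatives were pseudocounts, filters, scalings, a replicate block, no robust moderation, a 6-library fit and left-out libraries; figures used matplotlib 3.10.9.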

Additional observations from a re-analysis of the deposited data

How the results depend on the processing

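The 19 alternatives planned and 5 added after seeing the data kept the direction and the call of all 4 named IDs where they were fitted. In limma fitted to only the 6 libraries their adjusted p was weaker: 0.00133 for Virad09G0020600, 0.00117 for Virad10G0050400, 3.69e-06 for Virad10G0157400 and 7.42e-04 for Virad07G0173000. That fit shared 2178 of the 2624 higher calls and 2436 of the 2921 lower calls. With 1 of the 6 libraries left out, 3835 to 5293 IDs were called, 1879 to 2394 higher and 1956 to 2899 lower; 580 to 765 were at least 2-fold higher and 593 to 741 at least 2-fold lower; and T2 24 h lay nearer T1 24 h for 77.4% to 86.5% of them. Fewer libraries in a group by itself lowers a count. Without the libraries high in Pt signal 3641 were called, 1868 of them lower. With every library at the same total, 1200 were higher and 6169 lower, 1066 of these at least 2-fold; without Pt and Mt IDs as well, 1289 and 5758. Both scalings move all IDs down, by construction, because the T1 24 h totals are larger. At the same total and without T1_24h replicate 1 (added), 973 were higher, 413 at least 2-fold, and the T2 24 h share was 86.6%. Of 20 medians of classes and levels, 13 moved by more than the spread between replicates at the same total and 2 after quantile normalization. With any of the 6 libraries left out 0 did. That spread comes from the same replicates, so this 0 cannot show that the medians are stable. Without T1 24 h replicate 1 the median of Pt IDs went from 0.41 to 0.02. The median of IDs lower in T2 at 24 h than at 0 h went from -0.09 to 0.02. Same-numbered libraries had deviations correlated at 0.136, 0.433 and 0.065, and differently numbered ones at -0.358 to 0.24. Not every library was closest to its own number, but 3 libraries a group cannot settle whether the numbers pair them. The replicate block gave 5409 calls, and 5037 in a fit to only the 6 libraries, against 5578 there without it. T1 24 h against T2 24 h gave 534 calls, 1370 when only these and T2 48 h were fitted, and 29 once the libraries high in Pt signal were dropped. Depth limits values near 0, for which no detection limit can be given.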

Other observations

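Differences between interrupted and continuous salt were spread over all levels of expression. Grouped by mean value in the other 36 libraries, 20.4% of the 1451 IDs at 100 and over were higher and 15% lower in T1 24 h, with a median log2 difference of 0.06. Of the 5963 IDs from 20 to 100, 15.1% were higher and 17.2% lower, and of the 6706 from 5 to 20, 13.4% and 16.1%. Among the 3573 IDs from 1 to 5 the shares were 12.8% and 15.2%. Among the 346 IDs below 1 they were 20.2% and 17.6%. The filter kept only those low IDs that reached 1 in 3 or more of the 6 libraries compared, which shapes the last 2 shares.

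Outside the stretch described above, the data hold 1 run of 7 consecutive IDs at least 2-fold lower in T1 24 h. Their summed value was 49.1, 199 and 127.5 in T1 24 h, against 635, 479.7 and 569 in T2 48 h. It averaged 373 in T2 24 h, 207 in T1 48 h, 747 in T1 0 h and 1150 in T2 0 h, so it was lower in T1 than in T2 at each of 0, 24 and 48 h. A run of 4 consecutive IDs was higher in T1 24 h, at 236.8, 72 and 39.8, against 10.7, 17 and 7.7 in T2 48 h. It averaged 8.27 in T2 24 h and 92.4 in T1 48 h. Before the final salt it averaged 75.8 in T1 0 h and 31 in T2 0 h, so its T2 level was lower at 24 and 48 h than at 0 h. Both runs were chosen after their values were seen and carry no test.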
